A study of Mus musculus with 4 samples.

Results

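The genes described here are the core cardiac transcription factors of the T-box, GATA, Hand and NK-2 homeobox families, measured as RNA in right ventricles of adult mice. They are the 10 rows of the reads table named Tbx2, Tbx3, Tbx5, Tbx18, Tbx20, Gata4, Gata5, Gata6, Hand2 and Nkx2-5, of 29595 rows in all, and they were taken by name. All 10 passed the filter on low counts that left 16128 rows for testing. The hearts were 2 Ezh2-deficient mutants (mutant 1 and mutant 3) and 2 wild types (wild type 1 and wild type 2), all adult and on a mixed C57BL/6 background. Ezh2 is the enzyme of Polycomb repressive complex 2, which represses genes by methylating histone H3. The labels name neither the part of Ezh2 that was deleted nor the cells that lost it, and they give no age beyond adult. The comparison asks whether the factors that build and maintain the heart are read at another level in the ventricle when Ezh2 is deficient.

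These factors act together in heart development. Gata4, Nkx2-5, Tbx5 and Tbx20 bind DNA near genes of the working heart muscle and activate them, often in pairs, and Hand2 directs growth of the right ventricle and its outflow. Tbx2 and Tbx3 belong to the same T-box family as Tbx5 but repress chamber genes, Tbx2 in the atrioventricular canal and Tbx3 in the conduction system. Most of these genes carry Polycomb marks in cell types where they are silent. All 10 were read in every right ventricle here, at varying levels.

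The reads table held 21707784 and 23853394 reads in mutant 1 and mutant 3, against 20093783 and 18177642 in wild type 1 and wild type 2. The libraries were treated with a duplex-specific nuclease, which removes part of the abundant cDNA, so a level is not proportional to RNA across genes. Mitochondrial rows took 40.3% and 47.3% of reads in the mutants, against 34.7% and 41.2% in the wild types. Levels are therefore given as CPM, reads scaled to a common library size, by TMM, which takes most genes to be equal between libraries. The row of Ezh2 itself did not separate the groups, with 73 and 70 reads in the mutants against 77 and 67 in the wild types, and so does not check the labels. The Y-linked gene Ddx3y gave 754 and 659 reads in the mutants against 2 and 2 in the wild types, so sex and genotype cannot be told apart in any value that follows. Ventricular cardiomyocyte markers were high in all libraries, with all 8 markers read and a summed level of 49014 and 54457 CPM in the mutants, against 46460.2 and 39819 CPM in the wild types. Of 2 left ventricle markers, Hand1 had 0 reads in every library, and Cited1 had 6 and 4 reads in the mutants against 22 and 13 in the wild types.

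By the quasi-likelihood test of edgeR, 0 of the 10 factors reached an adjusted p of 0.05 or less, where 0.130% of all tested rows did (0.105% higher and 0.0248% lower in the mutants). At an unadjusted p under 0.05 the count was 0 of 10, against 10.9% of all tested rows. DESeq2 called 0 of 10 and 1.41% of all rows, and scaling by total counts called 0 of 10 and 0.967% of all rows. Of the 10, 8 had a log2 fold change below 0 (lower in the mutants) and 2 above 0, against 49.5% of all tested rows below 0. With scaling by total counts, which moved the median of all rows to -0.28, all 10 were below 0. The median log2 fold change was -0.22 over the 10 factors and 0.0046 over all tested rows. Over the 10 factors it was -0.21 without mutant 1, -0.10 without mutant 3, -0.13 without wild type 1 and -0.39 without wild type 2. The groups did not overlap for 4 of the 10 (Gata6, Tbx5 and Tbx2 lower and Nkx2-5 higher in the mutants), and 44.8% of all tested rows did not overlap either (22.4% lower and 22.3% higher). In bulk tissue, fewer cells of a type and less RNA per cell cannot be told apart.

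**Figure D1:**
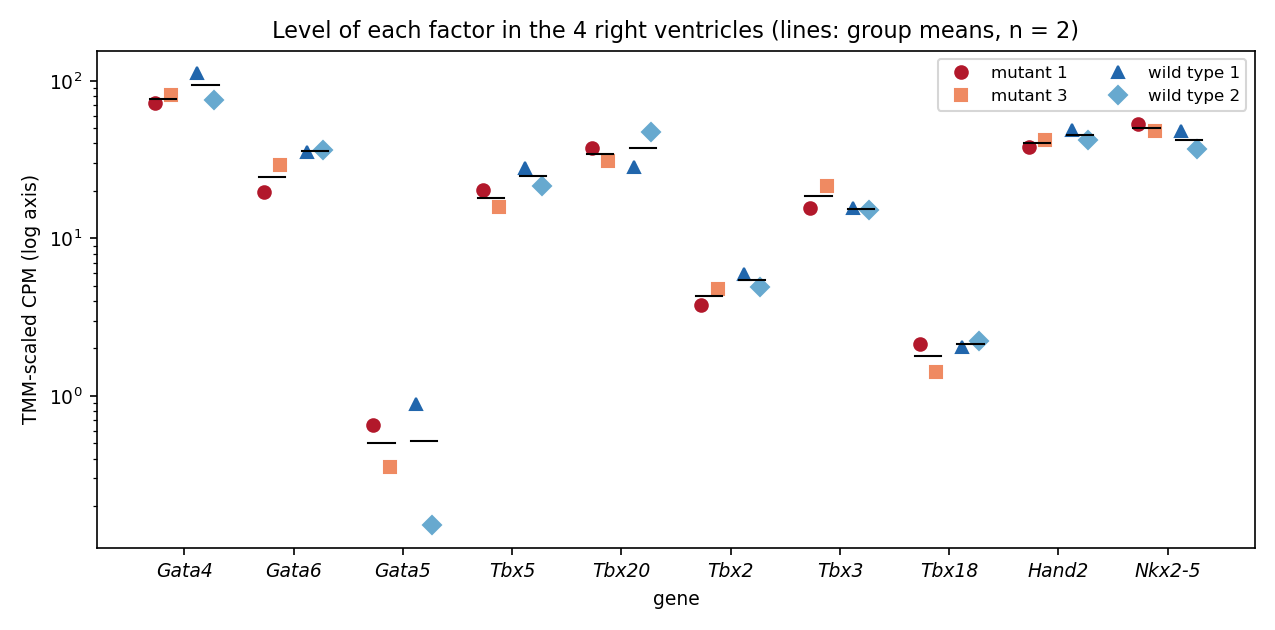
TMM-scaled CPM of the 10 factors on a log axis, with a point for each library and a line for each group mean (n = 2). Gata6 lies at 19.6 and 29.2 CPM in the mutants, below 35.5 and 36.6 CPM in the wild types, while the groups of Gata4, Gata5, Tbx20, Tbx3, Tbx18 and Hand2 overlap.

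Among the GATA zinc-finger factors, Gata6 was lower in both mutants than in both wild types without passing, and Gata4 and Gata5 overlapped. Gata6 (mm9 chromosome 18, 11052508 to 11085633, plus strand) is needed for early heart and endoderm formation and overlaps Gata4 in function in heart muscle. It had 420 and 575 reads in mutant 1 and mutant 3, against 797 and 728 reads in wild type 1 and wild type 2. That is 24.4 ± 6.76 CPM in the mutants and 36.1 ± 0.804 CPM in the wild types (SD, n = 2 each). Both mutants lay below both wild types, and the wild types were nearly alike. On the log2 scale the fold change was -0.57 ± 0.25 (SE), a fold of 0.676 with a 95% interval of 0.452 to 1.01, and the adjusted p was 0.470. The value was -0.27 without mutant 1 and -0.84 without mutant 3, against -0.59 without wild type 1 and -0.54 without wild type 2. In all, 11.6% of tested rows had a smaller p than Gata6.

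The authors' deposited table of ratios between single libraries gives the same gene without TMM scaling. There Gata6 in mutant 1 was 0.488 times wild type 1 and 0.483 times wild type 2, where the medians of all rows with a ratio were 0.890 and 0.908. In the authors' deposited table Gata6 in mutant 3 was 0.608 and 0.602 times the wild types, where the medians of all rows were 0.738 and 0.762. The ratio of wild type 1 to wild type 2 was 0.990 there, and that of mutant 1 to mutant 3 was 0.803. All 4 ratios of a mutant to a wild type were thus below the corresponding median. The ratios come from the same reads as the levels above and are not a separate measure.

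Gata4 (mm9 chromosome 14, 63817752 to 63890529, minus strand) activates natriuretic peptide and contractile genes in cardiomyocytes. It had 1554 and 1605 reads in the mutants, against 2504 and 1496 in the wild types, or 77.0 ± 6.27 CPM in the mutants and 93.4 ± 25.6 CPM in the wild types. Wild type 1 stood above the other 3 libraries, and wild type 2 lay between the mutants, so the groups overlapped. Its log2 fold change of -0.28 ± 0.25 had an adjusted p of 0.717 and a 95% interval of 0.553 to 1.23 as a fold. The value depended on which wild type was kept. It was -0.54 (adjusted p = 0.0252) without wild type 2 and 0.032 (adjusted p = 0.918) without wild type 1, and the adjusted p ranged from 0.0252 to 1.00 over its alternatives. The fit without wild type 2 called 21.6% of all rows, that without wild type 1 called 10.8%, and those without mutant 1 and without mutant 3 called 0.415% and 0.670%, with 0 of the 10 factors in the last 3.

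Gata5 (mm9 chromosome 2, 180059838 to 180069378, minus strand), which acts in endocardial and valve development, was close to the limit of detection. There were 14 and 7 reads of it in the mutants, against 20 and 3 in the wild types. The wild types alone spanned the values of both mutants. The log2 fold change of -0.06 ± 0.86 leaves a fold of 0.240 to 3.82 inside its 95% interval, so these libraries cannot tell folds within that range apart.

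Of the activating T-box factors, Tbx5 was lower in both mutants and Tbx20 was not apart. Tbx5 (mm9 chromosome 5, 120284672 to 120334481, plus strand), the gene mutated in Holt-Oram syndrome in humans, had 432 and 314 reads in the mutants, against 631 and 426 in the wild types. Its level was 18.0 ± 2.996 CPM in the mutants and 24.8 ± 4.71 CPM in the wild types. The groups did not overlap, but wild type 2 at 21.4 CPM was close to mutant 1 at 20.2 CPM. With all libraries the log2 fold change was -0.46 ± 0.25, a fold of 0.729 with a 95% interval of 0.490 to 1.08, and the adjusted p was 0.552. The value was -0.60 without mutant 1 and -0.25 without mutant 3, and neither fit passed. Without wild type 1 it was -0.25 (adjusted p = 0.440), and without wild type 2 it was -0.64 (adjusted p = 0.0281), over a range of adjusted p from 0.0281 to 1.00 for its alternatives.

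Tbx20 (mm9 chromosome 9, 24527648 to 24578746, minus strand) maintains adult cardiomyocyte function in mice. It had 806 and 610 reads in the mutants, against 638 and 934 in the wild types. The wild types, at 28.4 and 46.99 CPM, lay outside both mutants, at 37.6 and 30.9 CPM, on opposite sides. The log2 fold change of -0.14 ± 0.28 (adjusted p = 0.890) turned to 0.27 without wild type 2 and was -0.45 without wild type 1. In the authors' deposited table, the ratio of wild type 1 to wild type 2 was 0.618 for Tbx20, while mutant 1 was 1.17 and 0.723 times, and mutant 3 was 0.805 and 0.498 times, wild type 1 and wild type 2. Those ratios come from the same reads, without TMM scaling. The medians of all rows were 0.890 and 0.908 for mutant 1, and 0.738 and 0.762 for mutant 3, over wild type 1 and wild type 2. Both mutants were thus above the median in their ratio to wild type 1 and below it in their ratio to wild type 2.

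The repressive T-box factors Tbx2 and Tbx3 had mutant means on opposite sides of the wild-type means. Tbx2 (mm9 chromosome 11, 85646117 to 85655450, plus strand) had 81 and 94 reads in the mutants, against 134 and 97 in the wild types. Its level was 4.27 ± 0.698 CPM in the mutants and 5.42 ± 0.768 CPM in the wild types, and mutant 3 at 4.77 CPM nearly reached wild type 2 at 4.88 CPM. Tbx2 thus had a log2 fold change of -0.35 ± 0.30 (adjusted p = 0.705). Tbx3 (mm9 chromosome 5, 120120678 to 120134610, plus strand) had 335 and 426 reads in the mutants, against 352 and 299 in the wild types. At 18.6 ± 4.22 CPM in the mutants and 15.4 ± 0.446 CPM in the wild types, mutant 3 was above the other 3 libraries, which were alike. The log2 fold change of Tbx3 was 0.28 ± 0.24 (adjusted p = 0.711), and -0.029 with scaling by total counts. Without single libraries Tbx2 ran from -0.48 to -0.15 and Tbx3 from 0.065 to 0.53.

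Tbx3 is a marker of the conduction system in mouse, and Tbx18 of the epicardium, the sinus node region and pericytes. The 7 conduction markers, of which 6 were tested, summed to 34.1 and 46.7 CPM in the mutants, against 51.6 and 48.7 CPM in the wild types. Of these markers, Hcn4, Cacna1g, Cntn2 and Gja5 had log2 fold changes of -0.37, -0.39, -0.41 and -0.25, Shox2 had 0.71, and none of these 5 passed. Isl1, the untested one, had 4 and 8 reads in the mutants, against 0 and 0 in the wild types. Tbx18 (mm9 chromosome 9, 87599034 to 87626095, minus strand) had 46 and 28 reads in the mutants, against 46 and 44 in the wild types. Mutant 3 was the low library and the other 3 were alike (log2 fold change -0.25 ± 0.40, adjusted p = 0.854). The 6 epicardial markers were all read and summed to 8.31 and 9.48 CPM in the mutants, against 11.0 and 14.5 CPM in the wild types. The 6 mural markers, which cover pericytes, summed to 498 and 513 CPM in the mutants, against 470 and 590 CPM in the wild types. The part of these cells in the values of Tbx3 and Tbx18 was not tested.

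Hand2 and Nkx2-5 had the smallest SEs of the 10 factors, and neither passed. Hand2 (mm9 chromosome 8, 59799780 to 59803314, plus strand), a basic helix-loop-helix factor of the right ventricle and outflow tract, had 809 and 834 reads in the mutants, against 1097 and 834 in the wild types. Its level was 40.0 ± 3.21 CPM in the mutants and 45.4 ± 4.87 CPM in the wild types, with mutant 3 and wild type 2 alike at 42.3 and 41.96 CPM. Hand2 had a log2 fold change of -0.18 ± 0.21 (adjusted p = 0.792) and a fold of 0.881 with a 95% interval of 0.627 to 1.24. Nkx2-5 (mm9 chromosome 17, 26975610 to 26978510, minus strand), the homeobox factor of heart muscle and conduction cells, had 1135 and 943 reads in the mutants, against 1072 and 735 in the wild types. Its level was 50.4 ± 3.64 CPM in the mutants and 42.4 ± 7.61 CPM in the wild types. Mutant 3 at 47.8 CPM and wild type 1 at 47.7 CPM met at the border of the groups. The log2 fold change of 0.25 ± 0.22 (adjusted p = 0.719) was -0.031 with scaling by total counts, and its 95% interval as a fold was 0.831 to 1.70. Without single libraries Hand2 ran from -0.29 to -0.066 and Nkx2-5 from 0.078 to 0.45.

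GATA factors are known to act at regulatory DNA of both Hand2 and Nkx2-5 in mouse, so the 250 bases before each start are shown, from RefSeq on GRCm38.p6, another build than the table's mm9. The windows are chr8:57320733-57320982 on the plus strand for Hand2 and chr17:26841566-26841815 on the minus strand for Nkx2-5. The capitals mark letters searched on both strands, which for GATA were the word AGATAA, the word AGATAG, the word TGATAA and the word TGATAG, and for Hand the word CATCTG, with no overlap between them here.
Hand2: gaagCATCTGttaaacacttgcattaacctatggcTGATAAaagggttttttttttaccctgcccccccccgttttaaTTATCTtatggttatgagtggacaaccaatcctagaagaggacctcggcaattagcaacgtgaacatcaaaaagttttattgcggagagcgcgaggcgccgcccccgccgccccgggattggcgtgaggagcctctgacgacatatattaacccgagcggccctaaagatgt
Nkx2-5: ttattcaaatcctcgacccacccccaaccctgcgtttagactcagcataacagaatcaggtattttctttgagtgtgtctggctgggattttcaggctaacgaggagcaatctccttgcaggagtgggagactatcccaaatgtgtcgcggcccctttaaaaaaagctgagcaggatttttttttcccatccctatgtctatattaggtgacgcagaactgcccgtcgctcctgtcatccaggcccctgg

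The Hand2 window held 2 GATA words, at -215 to -210 and, on the other strand, at -172 to -167 from the start, and 1 Hand word at -246 to -241. The Nkx2-5 window held none of these words, nor the T-box word AGGTGT or the Nkx2-5 word TNAAGTG. Of 5 members with an entry, Tbx18 held 1 Hand word, and Tbx20 and Gata5 held none of the 4 kinds. Of 32841 promoter windows of this length, 26.5% held a GATA word, 14.4% the Hand word, 11.8% the T-box word and 10.1% the Nkx2-5 word. A match is a description of letters, and a window with no match says nothing about the factor.

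**Figure D2:**
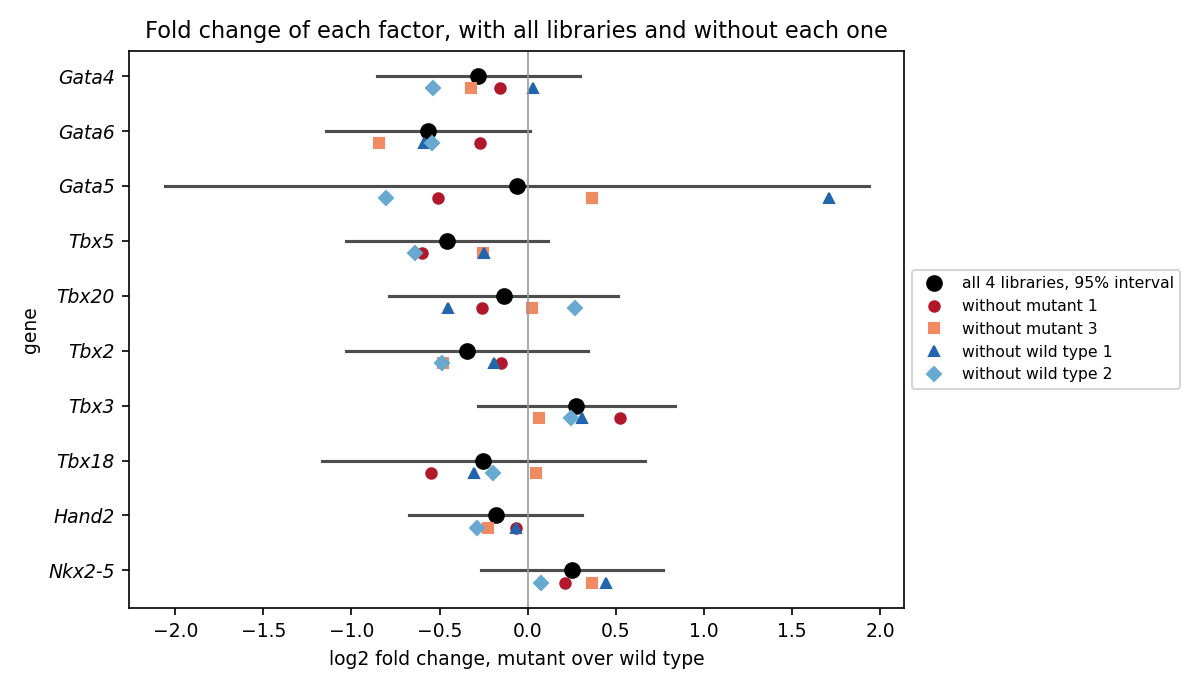
Log2 fold change, mutant over wild type, of each factor with all 4 libraries (black points, lines are 95% intervals) and without each library in turn (coloured points). All 10 intervals cover 0, Gata6, Tbx5, Tbx2 and Hand2 stay below 0 without each library in turn, and Gata5 runs from -0.80 to 1.71.

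Ratios of reads between members within a library do not depend on the scaling of libraries. With 2 against 2 libraries an exact permutation test cannot give a p below 1 in 3, so the ratios of 7 pairs are given as values. For the levels of single genes the groups did not overlap in 44.8% of all tested rows. The share over ratios of pairs of genes was not computed. The ratio of Tbx2 to Tbx3 was 0.242 and 0.221 in mutant 1 and mutant 3, against 0.381 and 0.324 in wild type 1 and wild type 2. Each pair of like hearts was close, and the groups did not overlap. The 95% counting interval (Clopper-Pearson) ran from 0.187 to 0.309 in mutant 1 and from 0.255 to 0.409 in wild type 2, so these single libraries overlapped in counting error.

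The ratio of Nkx2-5 to Gata4 was 0.730 and 0.588 in the mutants, against 0.428 and 0.491 in the wild types. The groups did not overlap here either, and the nearest counting intervals were 0.542 to 0.637 in mutant 3 and 0.449 to 0.537 in wild type 2. The ratio of Tbx5 to Tbx3, neighbours on chromosome 5, was 1.29 and 0.737 in the mutants, against 1.79 and 1.42 in the wild types. The mutants differed from each other there by more than mutant 1 differed from wild type 2. The other ratios overlapped between the groups. Gata4 to Gata6 was 3.70 and 2.79 in the mutants, against 3.14 and 2.05 in the wild types, and Hand2 to Gata4 was 0.521 and 0.520 in the mutants, against 0.438 and 0.557 in the wild types. Tbx5 to Tbx20 was 0.536 and 0.515 in the mutants, against 0.989 and 0.456 in the wild types, with wild type 1 apart from the other 3 libraries. Gata4 to Gata5 ran from 111 to 229 in the mutants and from 125 to 499 in the wild types, on few Gata5 reads.

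**Figure D3:**
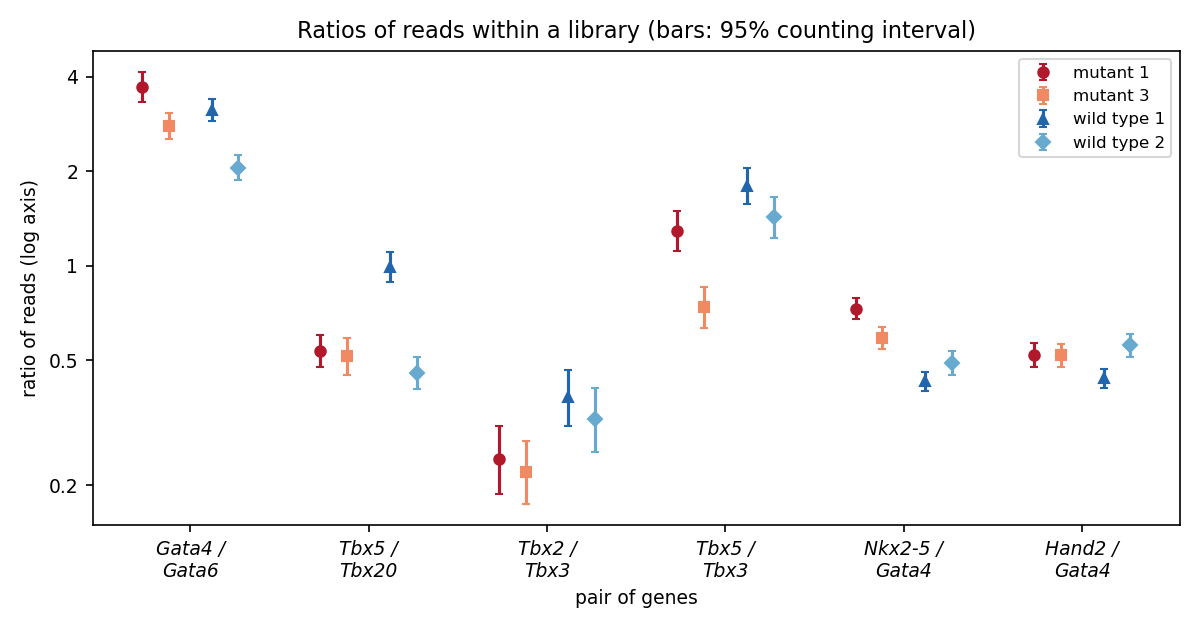
Ratio of reads of pairs of factors within each library on a log axis, with 95% counting intervals as bars. Tbx2 to Tbx3 and Tbx5 to Tbx3 are lower, and Nkx2-5 to Gata4 higher, in both mutants than in both wild types, while the other 3 pairs drawn overlap.

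Levels of different members were compared per kilobase of exon, as CPM per kilobase, and only as far as the nuclease treatment allows. Nkx2-5 stood highest with means of 33.0 in the mutants and 27.8 CPM per kilobase in the wild types. Gata4 followed at 21.1 and 25.6, and Hand2 at 17.0 and 19.3, in the mutants and wild types. Each library had these 3 in this order. Across the wild types their ranges overlapped, with Nkx2-5 at 31.3 and 24.2 and Gata4 at 30.6 and 20.7 CPM per kilobase in wild type 1 and wild type 2. Gata6 came next with 7.54 in the mutants and 11.2 CPM per kilobase in the wild types, above Tbx5 with 4.58 and 6.28, in each library. Tbx20 with 3.58 and 3.94 and Tbx3 with 3.58 and 2.95 CPM per kilobase did not separate, and mutant 3 had Tbx5 at 4.04 below Tbx3 at 4.15. Tbx2 with 1.18 and 1.496, Tbx18 with 0.381 and 0.455 and Gata5 with 0.154 and 0.159 CPM per kilobase were the lowest, in this order in every library.

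The members also differed in how far like hearts lay apart. For rows with a mean of at least 5 CPM, the median absolute log2 difference was 0.15 between the mutants and 0.37 between the wild types. Gata6 showed the opposite, with a log2 difference of -0.57 from mutant 3 to mutant 1 and of -0.05 from wild type 2 to wild type 1. Tbx3 did likewise, at -0.47 between the mutants and 0.06 between the wild types. Tbx20 differed most between the wild types among members over 5 CPM, at -0.73, followed by Gata4 at 0.57. For Gata6 and Tbx3 the spread thus lay in the mutants, and for Tbx20 and Gata4 in the wild types.

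Among the rows lying nearest to each member, 14 of 20 were tested and none passed by edgeR. At an unadjusted p under 0.05 there were 2 of the 14, against 10.9% of all tested rows. The only row overlapping a member was AK003136, on the strand opposite to Gata6, which shares 58 bases with it. It had 128 and 124 reads in the mutants, against 160 and 179 in the wild types (-0.39 on the log2 scale, adjusted p = 0.635). AK033147, on the same strand as AK003136 and 1.02 kb before Gata6, had 124 and 123 reads in the mutants, against 151 and 185 in the wild types (-0.41, adjusted p = 0.636). The rows of AK003136 (11049929 to 11052565) and AK033147 (11049085 to 11051485) overlap each other, so they may share reads and are not independent. Both were lower in both mutants than in both wild types, as Gata6 was. The reads of overlapping rows cannot be separated where strand was not used in counting. The log2 fold changes of the tested neighbours ran from -0.41 to 1.45. Neil2, a DNA repair gene 5.39 kb from Gata4, had 33 and 21 reads in the mutants, against 9 and 11 in the wild types (1.45, adjusted p = 0.408). Tbx4, 48.1 kb after Tbx2 and its neighbour in the T-box cluster, had 4 and 1 reads in the mutants, against 0 and 0 in the wild types. 4922501C03Rik, 449 kb from Tbx18, was the other neighbour at an unadjusted p under 0.05, with 85 and 58 reads in the mutants against 30 and 44 in the wild types (0.96, adjusted p = 0.433). AK087181, on the strand opposite to Tbx5 and 2.87 kb before it, had 124 and 147 reads in the mutants, against 111 and 138 in the wild types, which overlap.

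Of the other T-box genes, Tbx15 had more reads in both mutants without passing. Of 12 listed, 3 were tested and none passed over all rows. Unadjusted, 2 were higher and 0 lower at p under 0.05 (6.49% and 4.38% of all rows). Tbx15, known for limb skeleton and for glycolytic muscle fibres in mouse, had 71 and 49 reads in the mutants, against 5 and 6 in the wild types. Its log2 fold change was 3.45 ± 0.50 and its adjusted p 0.0747 by edgeR, with a range of 0.000295 to 0.147 over 10 alternatives, of which 6 passed, DESeq2 among them. Both mutants exceeded both wild types by more than the spread in either group. The 7 skeletal muscle markers, of which 5 were tested, summed to 184 CPM in mutant 1 but 3.70 CPM in mutant 3, against 3.87 and 3.17 CPM in the wild types. The part of skeletal muscle in the value of Tbx15 was not tested.

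Tbx6, a factor of the paraxial mesoderm, had 18 and 29 reads in the mutants, against 7 and 9 in the wild types (1.58 ± 0.62 on the log2 scale, adjusted p = 0.413). Mga, a broadly expressed factor with a T-box, had 459 and 367 reads in the mutants, against 267 and 530 in the wild types (0.06 ± 0.36, adjusted p = 0.970). Its value was 0.75 (adjusted p = 0.0172) without wild type 2 and -0.41 without wild type 1, and its row shares 7213 bases with that of mKIAA4252 on the same strand. Tbx1, a regulator of the outflow tract, was not tested and had 12 and 2 reads in the mutants, against 1 and 6 in the wild types.

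Among other Gata, Hand and NK homeobox genes, 3 of 15 were tested and none passed by edgeR (0 at an unadjusted p under 0.05). Gata2, an endothelial and blood factor, had 211 and 235 reads in the mutants, against 257 and 150 in the wild types (0.19 ± 0.29 on the log2 scale). Gata3 had 7 and 11 reads in the mutants, against 16 and 24 in the wild types (-1.11 ± 0.63, adjusted p = 0.571). The row of Nkx6-2, a factor of the nervous system, had 509 and 541 reads in the mutants, against 560 and 310 in the wild types, and shares 347 bases with the row of Inpp5a on the opposite strand. The closest relatives of the members in the heart, Hand1, Nkx2-3 and Nkx2-6, had 0 reads in all 4 libraries.

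Of 25 cofactors and upstream regulators of cardiac transcription, 23 were tested and none passed over all rows or by DESeq2. At an unadjusted p under 0.05, 1 was higher and 3 were lower (6.49% and 4.38% of all rows). Their median log2 fold change was -0.21, with 18 below 0 and 5 above, and it was -0.042 without wild type 1 and -0.32 without wild type 2. Utx, the X-linked histone demethylase also called Kdm6a, had 189 and 175 reads in the mutants, against 308 and 480 in the wild types (-1.10 ± 0.30, adjusted p = 0.278), in hearts that differ in sex. Myocd, a coactivator in heart and smooth muscle, was at 27.8 ± 0.567 CPM in the mutants and 41.9 ± 3.18 CPM in the wild types (-0.59 ± 0.21, adjusted p = 0.366). Its row shares 5588 bases with the row of BSAC2A on the same strand. Mef2c was at 33.5 CPM in the mutants and 33.97 CPM in the wild types.

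Tbx5 is also read in atrial muscle, and levels of atrial genes varied between libraries. The 7 atrial markers, of which 6 were tested, summed to 170 and 150 CPM in the mutants, against 91.6 and 36.1 CPM in the wild types. The light chain gene Myl7 had 1658 and 1218 reads in the mutants, against 665 and 54 in the wild types, while Bmp10 had 1 and 0 reads in the mutants against 0 and 0 in the wild types. Myl4 had 1150 and 862 reads in the mutants, against 475 and 51 in the wild types. Kcna5 went the other way, with 152 and 199 reads in the mutants against 398 and 210 in the wild types, and Stard10 had a log2 fold change of 0.06. Tbx5 was lower in both mutants, as given above. The part of atrial tissue in the values of Tbx5 was not tested.

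Among 30 genes known as targets of these factors in the heart, 29 were tested and 2 rose in the mutants, while none fell (0.105% and 0.0248% of all rows). At an unadjusted p under 0.05, 7 were higher and 4 lower (6.49% and 4.38% of all rows). This list, like the others, was chosen with earlier results of these data known. Its counts are therefore no test of the targets as a set. The median log2 fold change was 0.09, with 15 above 0 and 14 below. It ran from 0.032 to 0.19 without single libraries and was -0.017 without X, Y, mitochondrial and abundant rows. Ankrd1, a stress gene of the sarcomere that responds to Gata4 and Nkx2-5, had 52135 and 53057 reads in the mutants, against 7073 and 6116 in the wild types (3.04 ± 0.27, adjusted p = 0.00920). Nppa, which encodes atrial natriuretic peptide and is activated by Gata4, Nkx2-5 and Tbx5 and repressed by Tbx2 and Tbx3, had 70979 and 58600 reads in the mutants, against 8432 and 3437 in the wild types (3.52 ± 0.41, adjusted p = 0.0316). Without X, Y, mitochondrial and abundant rows the adjusted p of Nppa was 0.0809, the highest of its 10 alternatives, of which DESeq2 gave the lowest at 1.56e-21. Both mutants stood above both wild types for both genes. Nppa is also an atrial gene, and its order over the libraries, with wild type 2 lowest, was that of the summed atrial markers given above. The sizes differed. Nppa was at 3142 ± 241 CPM in the mutants and 274 ± 143 CPM in the wild types. The atrial sums were 170 and 150 CPM in the mutants, against 91.6 and 36.1 CPM in the wild types. Of the tested atrial markers, Myl7, Myl4 and Sln had this order, and Stard10, Nr2f2 and Kcna5 did not. The part of atrial tissue in the value of Nppa was not tested.

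Of the target genes that did not pass, some were higher and some lower, and their calls differed between alternatives. Nppb, which encodes B-type natriuretic peptide, was at 363 ± 82.7 CPM in the mutants and 88.7 ± 46.5 CPM in the wild types (2.03 ± 0.38, adjusted p = 0.136). It passed in 7 of 10 alternatives, with an adjusted p from 5.51e-06 (DESeq2) to 0.177. Id2, which Nkx2-5 and Tbx5 control in the conduction system in mouse, was at 11.6 ± 1.68 CPM in the mutants and 4.95 ± 1.24 CPM in the wild types (1.23 ± 0.29, adjusted p = 0.213). Tnnc1, the cardiac troponin C gene, was at 3136 ± 36.0 CPM in the mutants and 1542 ± 357 CPM in the wild types (1.02 ± 0.29, adjusted p = 0.279). Myl2, the ventricular light chain gene, was at 17703 ± 1069 CPM in the mutants and 9653 ± 1722 CPM in the wild types (0.87 ± 0.33, adjusted p = 0.403). Id2 passed in 3 of 10 alternatives (adjusted p from 0.00322 to 0.906), Tnnc1 in 3 of 10 (0.00512 to 0.929) and Myl2 in 2 of 9 (0.0317 to 1.00), and DESeq2 called Tnnc1 and Myl2.

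The potassium channel subunit gene Kcne1 and the natriuretic peptide convertase gene Corin were lower in both mutants without passing. Kcne1 was at 10.5 ± 5.67 CPM in the mutants and 26.6 ± 3.83 CPM in the wild types (-1.34 ± 0.37, adjusted p = 0.267). Corin was at 53.3 ± 11.9 CPM in the mutants and 89.1 ± 3.64 CPM in the wild types (-0.74 ± 0.23, adjusted p = 0.326). Kcne1 passed in 6 of 10 alternatives, among them DESeq2, over a range of adjusted p from 0.00534 to 1.00, and Corin passed in 2 of 10 (0.0178 to 1.00).

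**Figure D4:**
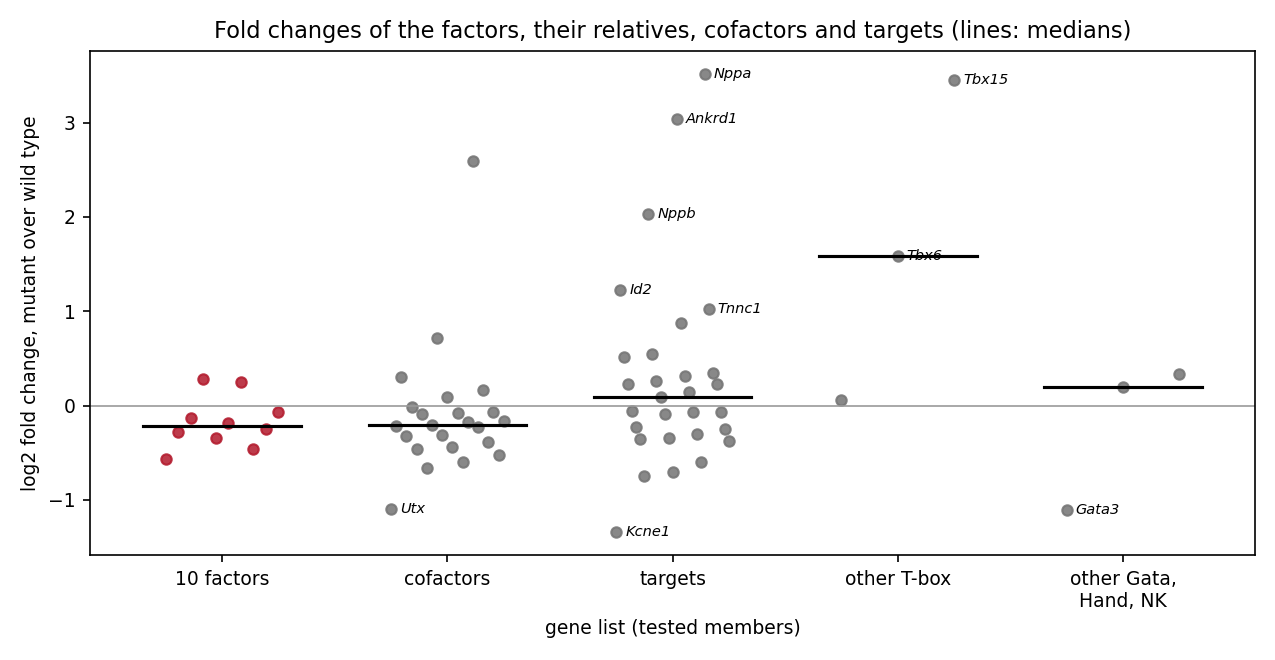
Log2 fold change, mutant over wild type, of the 10 factors and of the tested genes of 4 lists, with lines at the medians and names for the genes given in the text that lie beyond 1 in either direction. The 10 factors lie between -0.57 and 0.28, while Nppa, Ankrd1 and Tbx15 lie above 3.

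The genes whose pattern over the 4 libraries was most like a factor's were sought for the 3 factors of the largest fold change, as the smallest Euclidean distance of centred log2 CPM. Gata6 was nearest to Sgk, a serum-regulated kinase gene, at 16.8 and 25.6 CPM in the mutants, against 30.9 and 32.4 CPM in the wild types (distance 0.0327), and then to mKIAA0189. Tbx5 was nearest to Oplah (distance 0.0405) and 4933426M11Rik, and Tbx2 to Thy1 (distance 0.0227) and C76566. With 4 libraries such likeness is common. Within a distance of 0.3 lay 115 rows for Gata6, 843 for Tbx5 and 1230 for Tbx2, where the counts for Gata6 and Tbx5 include the factor itself. The search and these counts took only rows with a mean of at least 5 CPM.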

How the data were processed

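RNA of 4 right ventricles was sequenced from polyadenylated RNA after duplex-specific nuclease treatment, per the labels' protocols. Per the submitters' processing notes, the tools were TopHat 1.2.0 and Cufflinks and the build was mm9. How reads were counted, and whether by strand, was not given in the sources used here. In the deposited table are whole-number read counts per gene row, the authors' CPM (by library total, not used), and, for every 2 libraries, a ratio and a p-value by the authors, per the file headers. The authors' p-values were not used.

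The quasi-likelihood test of edgeR 4.0.16 (R 4.3.3) was run on the counts after filterByExpr and TMM, on all 4 libraries without a covariate, and p was adjusted by Benjamini-Hochberg over 16128 rows. Tests are two-sided, and an adjusted p under 0.05 counts as passing. SE came from the F statistic and intervals are 95%. Alternatives were DESeq2 1.42.0, limma-voom (limma 3.58.1), other scalings and filters and leaving out each library. The fit was tested on simulated data drawn with a common spread for all rows and both groups, so unequal spread was not covered. Exon lengths came from GENCODE M21, on a later build. Start positions are printed counted from 1. Counting intervals cover counting error only.

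The 10 members, the lists and the rules were chosen with earlier results of these data known. The text names all members, tested or read relatives, cofactors among the 3 of smallest p, the 8 targets of smallest p, overlapping and nearest rows (the untested or unremarkable counted) and rows of nearest pattern. Mef2c and single markers were named after their values were seen. Of the genes that this rule or the marker lists hold, some are not reported here.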

Additional observations from a re-analysis of the deposited data

How the results depend on the processing

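No paired analysis was possible because the groups share only the replicate number 1. Of 100 values of the 10 factors under 10 alternatives, 89 kept direction and call. The call changed for Gata4 (-0.54) and Tbx5 (-0.64) without wild type 2. That fit kept a single wild type, and calls were common in it over all rows, as given above for Gata4. With total counts only, which moved the median of all rows to -0.28, the log2 fold change turned to -0.029 for Tbx3, -0.031 for Nkx2-5, -0.26 for Ezh2, -0.22 for Mga and -0.11 for Gata2. With limma-voom it turned to 0.30 for Gata5. Without single libraries it ran from -0.55 to 0.048 for Tbx18 (positive without mutant 3), from -0.45 to 0.27 for Tbx20 (0.026 without mutant 3, 0.27 without wild type 2), from -0.54 to 0.032 for Gata4 (positive without wild type 1), from -0.80 to 1.71 for Gata5 (0.37 without mutant 3, 1.71 without wild type 1), from -0.41 to 0.75 for Mga (-0.030 without mutant 1, -0.41 without wild type 1) and from -0.074 to 0.53 for Gata2 (negative without wild type 2).

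The count of all rows called, 21, was 227 with DESeq2, 156 with total counts only, 317 with no filter, 3 without X, Y, mitochondrial and abundant rows, 69 at an adjusted p under 0.1, and 67 to 3488 without single libraries. A library left alone was taken to vary like the other group. Other T-box genes called were 1 with DESeq2, 1 with total counts only, 1 with no filter and 0 to 2 without single libraries. Other Gata, Hand and NK genes called were 0 to 1 without single libraries, and their median log2 fold change ran from -0.074 to 0.53. Cofactors called were 1 with total counts only, 1 with no filter and 0 to 7 without single libraries (7 without wild type 2). Targets called were 6 with DESeq2, 4 with total counts only, 5 with no filter, 1 without X, Y, mitochondrial and abundant rows, and 3 to 10 without single libraries (4 without mutant 3, 9 without wild type 1, 10 without wild type 2). With total counts only the median was -0.50 for the 10 factors, -0.11 for the Gata, Hand and NK relatives, -0.49 for cofactors and -0.20 for targets. The cause of these shifts was not tested. Gata5, Tbx18 and the untested relatives had few reads, and counting error and spread between hearts were not separated there.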
